A study of Mus musculus with 35 samples.

Results

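The 51 genes described here act in the second gap phase of the cell cycle (G2) and in mitosis, and were found by gene name among 53465 genes counted in 35 RNA-seq libraries. Each name matched a single gene identifier. The libraries hold KC-shSmad4 tumor cells, mouse pancreatic ductal adenocarcinoma (PDAC) cells with the alleles Ptf1a-Cre, which acts in the pancreas, and Rosa26 LSL-rtTA3-IRES-mKate2, and with a doxycycline-inducible, GFP-linked short hairpin RNA against Smad4 at the Col1a1 locus. All groups share these alleles. The cells came from tumor-derived lines of male mice, most of which had lost Cdkn2a/b, and were transplanted into female athymic nude mice, which lack mature T cells. They were placed in the pancreas, in the spleen to seed the liver or in the tail vein to seed the lungs, and mKate2-positive cells were sorted 7 or 14 days after doxycycline chow was withdrawn (labelled Smad4 on) or from mice kept on it (labelled Smad4 off). Withdrawal began 4 weeks after injection for the pancreas, 5 for the liver and 6 for the lungs, so organ cannot be told apart from injection route and tumor age.

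On day 7, the pancreas gave 3 libraries labelled off and 2 labelled on, the liver 2 and 3, and the lungs 4 and 2. On day 14, the pancreas gave 2 labelled off and 3 labelled on, the liver 3 of each and the lungs 4 of each. Each label carries a mouse number, taken here as separate hosts, but how many cell lines stand behind the hosts is not given in the labels.

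A dividing cell makes many of these transcripts in waves. Their promoters are held silent in quiescent cells and in G1, and in G2 they are switched on by the MuvB complex with B-Myb (Mybl2) and by the forkhead factor Foxm1. The proteins then drive entry into mitosis, condense the chromosomes, build the spindle, hold anaphase until every kinetochore is attached and divide the cell. Cells outside the cycle hold little of the mRNAs made in waves. The level of such mRNAs in bulk RNA thus follows both the share of dividing cells and the amount of mRNA per dividing cell. These cannot be told apart in sorted bulk samples. Not every member is of this kind, since Tubb4b is a tubulin of most cells.

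Smad4 mRNA went against the labels: it was 69.9 to 143 CPM (counts scaled to 1000000 per library) in the 18 libraries labelled off and 14.8 to 22.4 CPM in the 17 labelled on. Groups are therefore named only by their labels, and a negative fold change means a lower level in cells labelled on. If the labels of the doxycycline arms were exchanged, every sign between labels would turn, and this was not tested. The study reports fewer Ki67-positive tumor cells after Smad4 reactivation, in the liver only. It also reports a similar degree of Smad4 depletion and restoration across organs. Totals ran from 11885461 to 43571007 counts (median 19415320). On these totals, without further scaling, the floor of 3 counts lay at 0.0689 to 0.252 CPM. The lowest count of any member was 69. Mitochondrial reads also differed: 10 libraries of liver and lungs, 1 or 2 in each of their groups, had mt-Co3 reads counted, while 25 had 0. The liver library 2 of day 7 labelled off, described as paired-end, had 35782 summed CPM over 7 fibroblast markers against 323 in library 1 of its group. Epithelial markers were above the floor in every group. Leukocyte markers summed to at most 340 CPM, and Cd3e was under the floor in every library of 10 of the 12 groups.

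Members took 0.188% to 0.430% of all counts, and all 51 passed the filter on low counts in every comparison. A score was computed as the mean over the 51 members of log2(CPM + 0.5). It is a description and was given no test. In the pancreas on day 7, the score was 5.85, 5.86 and 5.94 in the libraries labelled off and 4.98 and 5.39 in those labelled on. The groups did not overlap, and their means, 5.89 ± 0.05 (SD, n = 3) and 5.18 ± 0.29 (n = 2), differed by -0.70. On day 14, the pancreas gave 5.34 and 5.09 labelled off and 5.23, 4.98 and 5.07 labelled on, a difference of -0.12 with overlapping groups. Thus the libraries labelled off stood higher on day 7 than on day 14, while those labelled on lay near the same level on both days.

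In the liver, the score was 5.95 and 5.22 labelled off and 5.51, 5.33 and 4.49 labelled on at day 7, a difference of -0.48. At day 14 it was 5.15, 6.01 and 5.59 labelled off and 5.39, 4.79 and 4.97 labelled on, a difference of -0.54. The groups overlapped at both days. Among libraries without mt-Co3 counts the differences were -0.53 (2 labelled on and 1 labelled off) and -0.50 (2 of each). Among those with them they were -0.73 and -0.63, with 1 library of each label on each day, which gives no spread. In the lungs the differences were -0.01 at day 7 and -0.00 at day 14. The liver thus held both the highest score of the series, 6.01, and the lowest, 4.49, whereas the 14 lung libraries lay between 4.99 and 5.42.

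**Figure D1:**
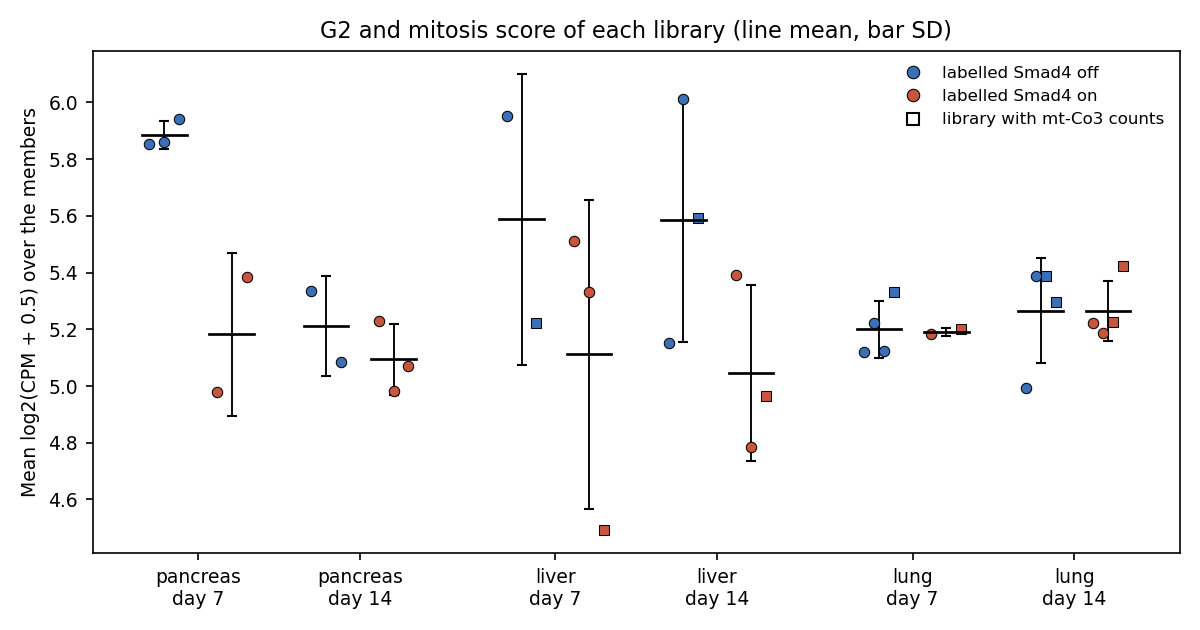
The mean log2(CPM + 0.5) over the 51 members (vertical axis) is plotted for each library by organ and day, with the mean as a line, the SD as a bar and squares for libraries with mt-Co3 counts. The 3 pancreatic libraries of day 7 labelled off lie between 5.85 and 5.94, above both labelled on, while the lung groups overlap.

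The first comparison asked how the members differed between the labels in primary tumors 7 days after withdrawal. In the pancreas on day 7, 10 of the 51 members were called lower in cells labelled on (fold change over 2 and edgeR adjusted P under 0.05), where 0.374% of the 14439 genes tested were called lower, and none was called higher, against 0.956%. Without the fold threshold, 14 members fell (0.9% of all genes) and 0 rose (1.34%). In both directions together, the 14 members (2.24% of all genes) became 31 with DESeq2 (10.1%) and 32 without the filter on low counts (5.84%). More members thus passed there than are said below to have passed by edgeR. The 10 were the kinetochore genes Cenpf, Ndc80 and Nuf2, the checkpoint kinases Bub1 and Ttk, the cytokinesis genes Anln and Kif20b, the spindle genes Kif11 and Ckap2l, and Top2a. Of all members, 50 had a log2 fold change under 0 (48.8% of all genes) and 41 of these an unadjusted P under 0.05 (11.3%), with a median of -0.75 against 0.01 over all genes, and in 46 the labelled on group lay wholly under the other (22.3% of all genes, and 21.0% wholly above).

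Cytokinesis genes had the lowest median of the 8 roles, -1.12 over 4 members. Anln encodes anillin, the scaffold of the cleavage furrow. It stood at 193, 217 and 202 CPM in the libraries labelled off and at 72.2 and 92.7 CPM in those labelled on. Both libraries labelled on were thus far under the lowest labelled off, and the log2 fold change was -1.29 ± 0.14 (SE; adjusted P = 0.0138). Kif20b, a kinesin of the midbody, went from 27.6, 24.5 and 22.1 CPM to 9.04 and 11.1 CPM, a log2 fold change of -1.29 ± 0.17 (SE; adjusted P = 0.0285). Ect2, the exchange factor that activates RhoA at the furrow, fell by less than 2-fold, -0.95 ± 0.15 (SE; adjusted P = 0.0354). The central spindle kinesin Kif23 had 75.7, 72.5 and 77.3 CPM labelled off and 50.7 and 63.2 CPM labelled on, and its -0.39 ± 0.12 (SE; adjusted P = 0.123) did not pass.

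Genes of the centromere and kinetochore had a median of -0.94, and 4 of 6 fell. Nuf2 and Ndc80 are subunits of the complex that ties the kinetochore to microtubules. Nuf2 counted 32.5, 34.6 and 31.3 CPM labelled off and 14.7 and 16.3 CPM labelled on, a log2 fold change of -1.07 ± 0.12 (SE; adjusted P = 0.0185). For Ndc80 the values were 22.9, 23.0 and 22.9 CPM and 8.71 and 12.8 CPM, with -1.08 ± 0.19 (SE; adjusted P = 0.0454). Both genes separated the labels with a wide gap. Cenpf, a large kinetochore protein, had 61.0, 56.2 and 65.4 CPM against 26.7 and 31.6 CPM and a log2 fold change of -1.05 ± 0.13 (SE; adjusted P = 0.0189). The kinetochore motor Cenpe also fell (log2 fold change -0.82, adjusted P = 0.0451). Cenpa, the centromeric histone, had a log2 fold change of -0.79 ± 0.17 (SE; adjusted P = 0.062) and its chaperone Hjurp one of -0.19 ± 0.12 (SE; adjusted P = 0.391), and neither passed.

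Among the 6 genes of the checkpoint and of protein destruction, the 2 checkpoint kinases fell. Bub1 had 34.6, 37.4 and 34.3 CPM labelled off and 11.4 and 18.0 CPM labelled on (log2 fold change -1.26 ± 0.20, adjusted P = 0.0361). Ttk, also called MPS1, had 16.4, 16.4 and 15.1 CPM and 6.78 and 6.62 CPM (log2 fold change -1.24 ± 0.16, adjusted P = 0.0239). The genes of the anaphase-promoting complex machinery did not pass: Cdc20, its activator, had a log2 fold change of -0.62 ± 0.24 (SE; adjusted P = 0.202), and Ube2c, its ubiquitin-conjugating enzyme, one of -0.89 ± 0.22 (SE; adjusted P = 0.0851). Cdca3 and the ubiquitin ligase G2e3 overlapped between the labels.

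Of the 13 spindle motors and microtubule proteins, Kif11 and Ckap2l fell. Kif11 is the kinesin that pushes the spindle poles apart. It was measured at 66.8, 55.9 and 55.0 CPM labelled off and 23.7 and 30.1 CPM labelled on (log2 fold change -1.13 ± 0.16, adjusted P = 0.0306), and the spindle protein Ckap2l at 37.0, 38.7 and 41.6 CPM and 16.0 and 22.2 CPM (log2 fold change -1.02 ± 0.16, adjusted P = 0.0356). Psrc1, a spindle-associated protein, was the single member above 0. Its values were 6.06, 8.39 and 8.27 CPM labelled off and 8.25 and 19.3 CPM labelled on, so that 1 library labelled on stood apart and the other lay among those labelled off (log2 fold change 0.88 ± 0.37, adjusted P = 0.218). The microtubule polymerase Ckap5, at -0.48 ± 0.11 (SE; adjusted P = 0.0756), and the beta-tubulin Tubb4b, at -0.57 ± 0.19 (SE; adjusted P = 0.145), did not pass. Of the proteins that build or bundle spindle microtubules, Dlgap5 (log2 fold change -0.89 ± 0.24, adjusted P = 0.101), Hmmr (log2 fold change -0.91 ± 0.21, adjusted P = 0.0775), Nusap1 (log2 fold change -0.87 ± 0.20, adjusted P = 0.0712) and Gtse1 (log2 fold change -0.82 ± 0.21, adjusted P = 0.0933) did not pass, although their groups did not overlap. The depolymerase Kif2c had a log2 fold change of -0.66 ± 0.22 (SE; adjusted P = 0.146), Tacc3 one of -0.61 ± 0.24 (SE; adjusted P = 0.199) and Ckap2 one of -0.66 ± 0.25 (SE; adjusted P = 0.183), while Gas2l3, which links actin to microtubules, stood near 0 at -0.13 ± 0.15 (SE; adjusted P = 0.634).

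Among the 8 genes of chromosome structure and chromatin, the median was -0.46 and 2 fell. Top2a, the topoisomerase that untangles sister chromatids, had 322, 330.1 and 335 CPM labelled off and 136 and 181 CPM labelled on (log2 fold change -1.04 ± 0.14, adjusted P = 0.0306). Mki67, the chromosome coat protein Ki-67 used as a standard proliferation marker, had 302, 273 and 294 CPM and 121 and 170.1 CPM (log2 fold change -0.99 ± 0.17, adjusted P = 0.0397), just under 2-fold. Ctcf, the insulator protein, had 118, 104 and 104 CPM and 98.1 and 97.9 CPM. The condensin subunit Smc4 was at -0.59 ± 0.15 (SE; adjusted P = 0.0832). Ctcf and Smc4 thus lay closer to 0 than Top2a and Mki67.

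Of the remaining roles, 1 member passed. Tpx2, which activates Aurora A on the spindle, was the single one of 6 mitotic kinase and passenger complex genes to fall (log2 fold change -0.91 ± 0.15, adjusted P = 0.0368), while all 6 had groups that did not overlap and a median of -0.83. Birc5, or survivin, was at -0.86 ± 0.17 (SE; adjusted P = 0.0593) with 51.4, 56.0 and 64.9 CPM labelled off and 26.0 and 36.6 CPM labelled on. Aurora A, encoded by Aurka, stood at 29.4, 30.5 and 40.4 CPM labelled off and 14.1 and 24.3 CPM labelled on (log2 fold change -0.79 ± 0.26, adjusted P = 0.15). Aurora B, encoded by Aurkb and the kinase of the passenger complex, stood at 38.7, 39.6 and 47.9 CPM and 17.1 and 26.9 CPM (log2 fold change -0.92 ± 0.21, adjusted P = 0.0759). Both kinases were thus lower in both libraries labelled on, without passing the test over all genes. The centrosomal kinase Nek2 had a log2 fold change of -0.56 ± 0.26 (SE; adjusted P = 0.255) and Cdca8, or borealin, one of -0.79 ± 0.25 (SE; adjusted P = 0.137). None of the 5 genes of entry into mitosis passed, although their groups did not overlap. Cdk1, the kinase of mitotic entry, had 101, 109 and 123 CPM and 58.8 and 79.0 CPM (log2 fold change -0.68 ± 0.15, adjusted P = 0.0698), and its small subunit Cks1b 70.6, 97.4 and 92.0 CPM and 50.5 and 56.2 CPM (log2 fold change -0.69 ± 0.15, adjusted P = 0.0674). Cyclin B2, encoded by Ccnb2, was at -0.75 ± 0.19 (SE; adjusted P = 0.0935) and the phosphatase Cdc25c, which switches Cdk1 on, at -0.76 ± 0.23 (SE; adjusted P = 0.121). The 3 nuclear envelope genes, Tmpo, Lbr and Rangap1, had the smallest median, -0.33.

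**Figure D2:**
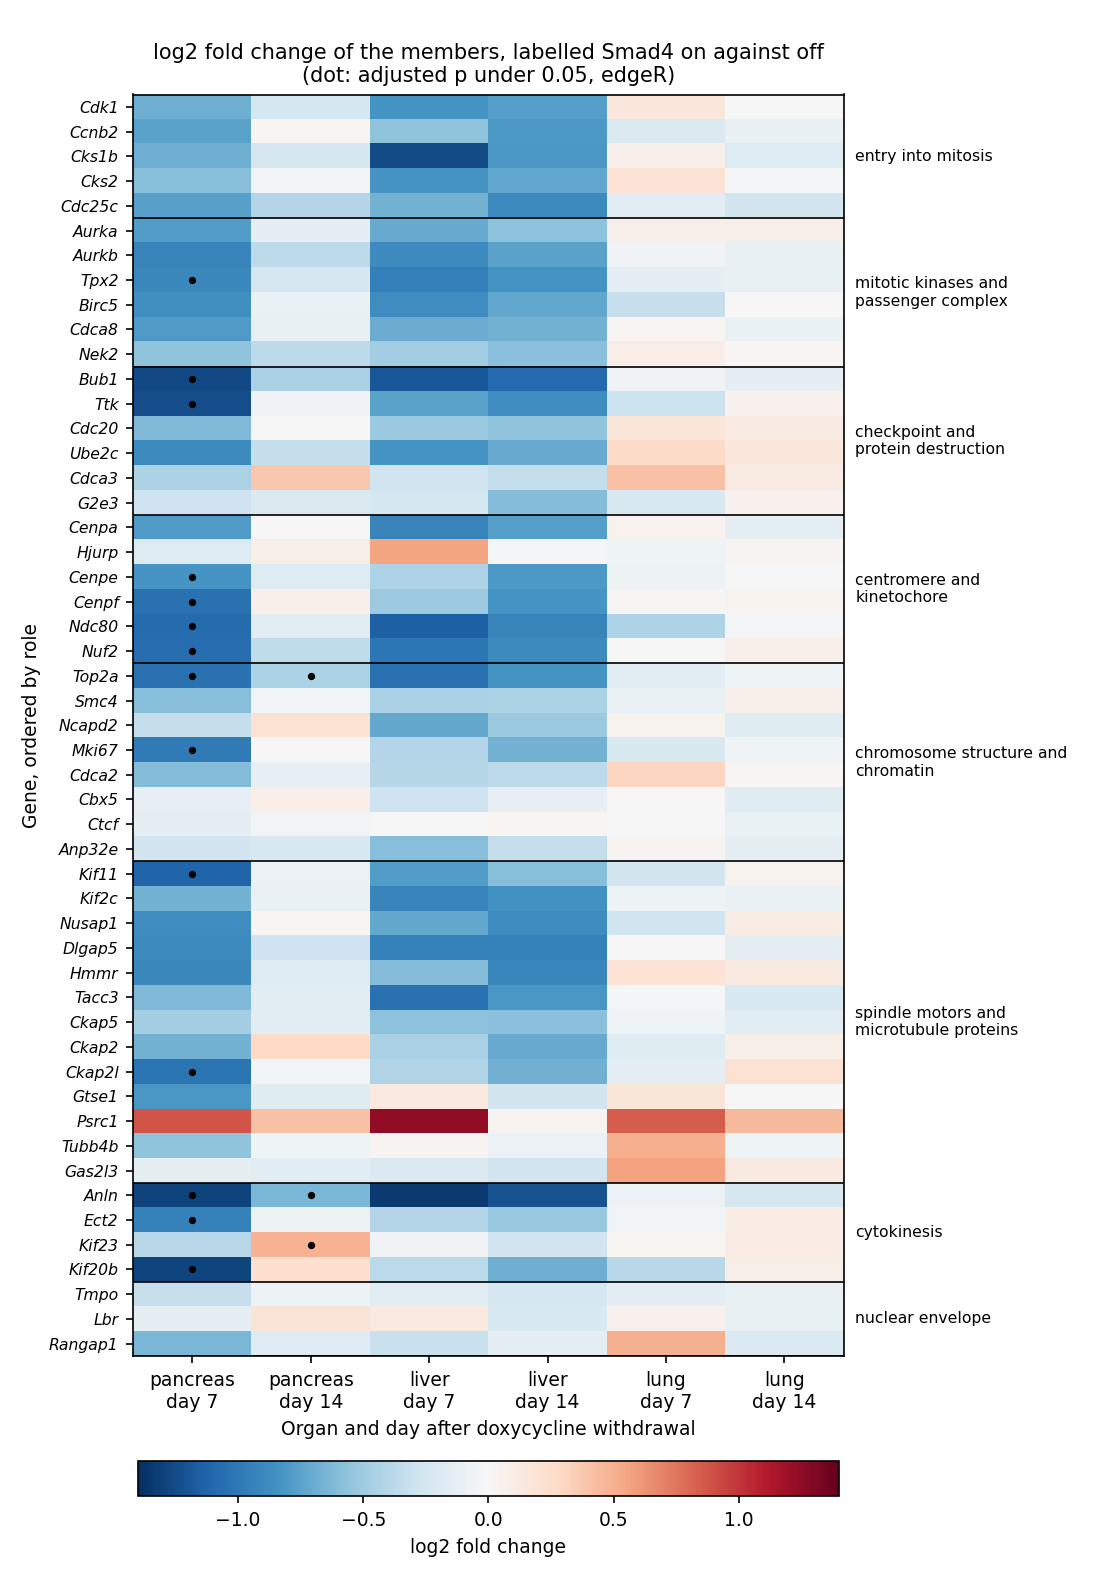
The colour gives the log2 fold change of each member, labelled on against off, for the 6 pairs of organ and day, with members ordered by role and a dot where the edgeR adjusted P value is under 0.05. The column of day 7 in the pancreas holds 14 dots, day 14 holds 3 and the 4 liver and lung columns hold none.

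Several values moved with this comparison. Summed CPM of the 7 fibroblast markers were 23295 and 24253 labelled on against 11804 to 16852 labelled off, and those of 6 acinar markers 619 and 836 against 1715 to 2739, with Amy2a5 under the floor. The 7 leukocyte markers summed to 44.1 and 54.7 CPM labelled on and to 66.8 to 88.7 CPM labelled off. Epithelial markers overlapped between the labels. The part of these other cells in the result was not tested. The count of 10 changed with single libraries left out: it was 7 without library 1 or without library 2 labelled off and 0 without library 3 labelled off. It was 0 without library 1 labelled on and 4 without library 2 labelled on, where 1 library labelled on is left and is assumed to vary like those labelled off, which alone give the spread. DESeq2 called 10 (3.58% of all genes in both directions), and a single fit of all 12 groups 1 (0.239%).

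A pair of short motifs is known from promoters of this gene class: the cell cycle genes homology region (CHR), read by MuvB, and the CCAAT box, read by NF-Y. RefSeq promoter windows of 300 bases (250 before the start and 50 from it, GRCm38.p6) were found for 45 of the 51 members, 50 windows in all. The CHR was searched as TTTGAA or TTCGAA and the box as CCAAT, on both strands, and a match of each can overlap one of the other by a single letter at its end. The CHR was in 74.0% of the members' windows and in 19.2% of all 32817 windows, the box in 74.0% and 37.4%, and both in 60.0% and 7.51%. By gene, 35 of 45 members held the CHR, 34 the box and 28 both in the same window. The letters say nothing on whether a factor binds.

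Of the 49 CHR matches, 33 lay within 50 bases of the start site, with a median of 18 bases before it. For the box, 60 of 96 matches lay further upstream, with a median of 66 bases before the start. That upstream stretch is the larger part of each window. Positions over all windows were not computed, so neither count has a share to stand beside. There are 5 members with a pair of overlapping windows, and their shared matches are counted in both. On day 7 in the pancreas, the median log2 fold change was -0.69 in the 35 members with the CHR, of which 9 were called, and -0.72 in the 10 without, of which 1 was called. It was -0.68 in the 34 with the box, of which 6 were called, and -0.86 in the 11 without, of which 4 were called.

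**Figure D3:**
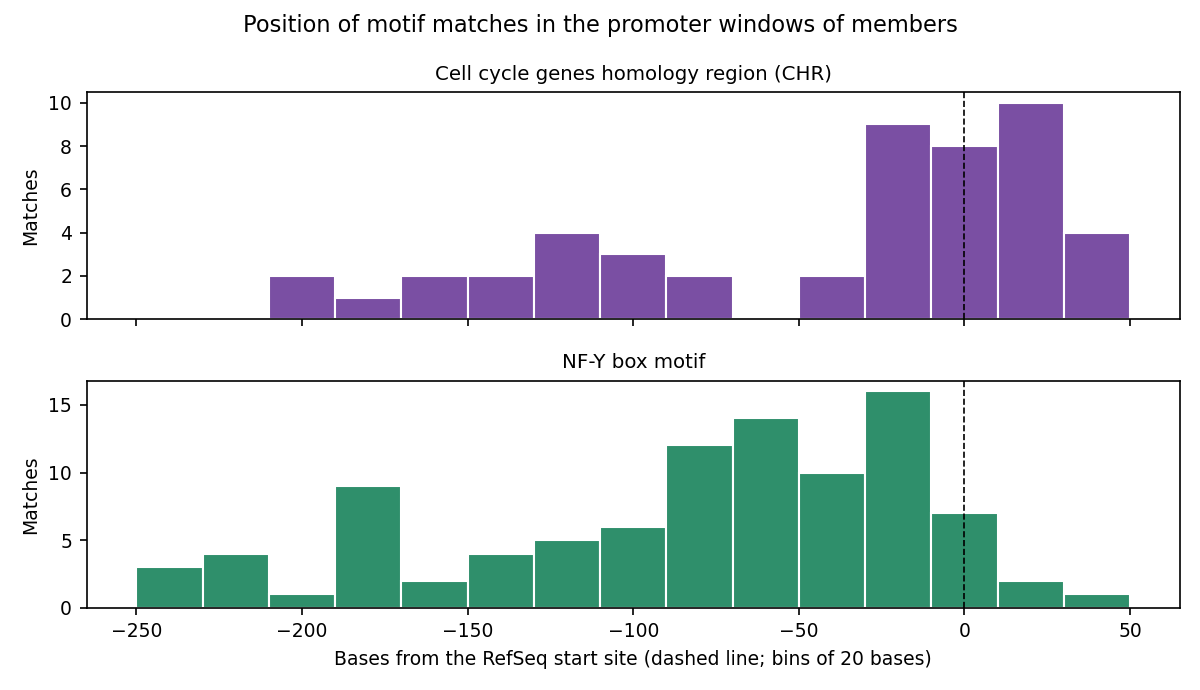
Histograms of the distance of each motif match from the RefSeq start site, in bins of 20 bases, for the 50 windows of 45 members, with the CHR above and the NF-Y box below. The median position is -18 for the CHR matches and -66 for the box matches, and positions over all windows were not computed.

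Promoters are printed for the 4 members called lower on day 7 in the pancreas with the lowest adjusted P values among those that hold both motifs, and for Psrc1, the member with the highest fold change there, to show that it carries the same letters (the first of its windows). Each run starts 250 bases before the start site, ends 30 bases into the gene and is read 5′ to 3′ on the gene's strand, with both motifs in capitals. Coordinates are those of GRCm38.p6. The runs are Cenpf at chr1:189688057-189688336 (minus strand), Ttk at chr9:83834439-83834718 (plus strand), Top2a at chr11:99024160-99024439 (minus strand), Kif11 at chr19:37376132-37376411 (plus strand) and Psrc1 at chr3:108383554-108383833 (plus strand).
Cenpf: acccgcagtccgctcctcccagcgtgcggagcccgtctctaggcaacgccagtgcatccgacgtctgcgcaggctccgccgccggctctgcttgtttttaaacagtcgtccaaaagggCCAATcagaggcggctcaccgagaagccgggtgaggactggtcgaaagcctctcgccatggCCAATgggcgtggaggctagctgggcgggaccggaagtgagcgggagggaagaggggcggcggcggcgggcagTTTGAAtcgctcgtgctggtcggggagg
Ttk: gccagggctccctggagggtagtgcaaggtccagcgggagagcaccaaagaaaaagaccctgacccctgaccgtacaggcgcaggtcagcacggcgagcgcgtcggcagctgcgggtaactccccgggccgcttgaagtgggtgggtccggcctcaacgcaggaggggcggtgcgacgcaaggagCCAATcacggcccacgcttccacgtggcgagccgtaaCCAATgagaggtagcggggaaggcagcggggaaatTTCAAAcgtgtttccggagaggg
Top2a: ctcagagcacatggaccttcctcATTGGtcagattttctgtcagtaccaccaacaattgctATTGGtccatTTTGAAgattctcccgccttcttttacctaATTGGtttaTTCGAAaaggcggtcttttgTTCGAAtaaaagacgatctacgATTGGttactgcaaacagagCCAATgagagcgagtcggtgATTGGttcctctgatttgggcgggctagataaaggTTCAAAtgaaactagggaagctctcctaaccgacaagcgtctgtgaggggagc
Kif11: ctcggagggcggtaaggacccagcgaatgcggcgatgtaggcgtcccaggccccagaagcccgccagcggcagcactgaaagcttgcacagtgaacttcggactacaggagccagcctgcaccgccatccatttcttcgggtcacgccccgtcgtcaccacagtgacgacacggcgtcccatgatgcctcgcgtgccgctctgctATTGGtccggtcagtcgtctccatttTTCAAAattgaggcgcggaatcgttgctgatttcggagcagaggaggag
Psrc1: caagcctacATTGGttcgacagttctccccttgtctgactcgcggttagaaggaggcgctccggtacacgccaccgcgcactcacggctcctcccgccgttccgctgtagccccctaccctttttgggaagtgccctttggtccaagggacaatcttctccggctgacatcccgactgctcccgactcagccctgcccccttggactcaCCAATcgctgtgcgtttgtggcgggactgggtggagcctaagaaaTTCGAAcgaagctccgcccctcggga

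The second comparison asked whether the difference was still present 14 days after withdrawal. In the pancreas on day 14, 0 of 51 members were called (1.26% of 14234 genes were called lower and 3.39% higher), and DESeq2 also called 0, where it called 5.85% of all genes. Without the fold threshold 2 members fell and 1 rose, against 6.3% and 6.6% of all genes, and at an unadjusted P under 0.05 there were 5 lower (14.1%) and 1 higher (14.6%). The median log2 fold change was -0.09, and 37 of 51 were under 0 (47.8%). The groups did not overlap in 12 members that were lower (25.2%) and 1 that was higher (21.9%).

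Anln again had the lowest P value. Its libraries stood at 112 and 87.3 CPM labelled off and 65.4, 60.8 and 62.6 CPM labelled on, and the groups did not overlap (log2 fold change -0.64 ± 0.11, adjusted P = 0.00862). Top2a had 186 and 154 CPM and 119.6, 124 and 126 CPM (log2 fold change -0.44 ± 0.09, adjusted P = 0.0207). Both genes thus differed in the same direction as on day 7, by less. Summed CPM of the 4 erythroid markers were 14.1 and 38.8 labelled off against 39.6 to 75.5 labelled on, those of 6 hepatocyte markers 1.37 and 2.05 against 5.97 to 10.3, those of 6 lung epithelium markers 0.812 and 1.41 against 1.76 to 2.65, and those of 7 epithelial tumor markers 4502 and 4878 against 5635 to 8020, with no overlap. The other 4 lists overlapped between the labels. Their part in these values was not tested. Kif23 went the other way, from 46.7 and 40.1 CPM to 65.3, 56.7 and 57.1 CPM (log2 fold change 0.49 ± 0.10, adjusted P = 0.021), and was the single member that rose. Mki67 had 159 and 139 CPM and 157, 132 and 152 CPM, and Bub1 20.8 and 16.0 CPM and 12.3, 13.5 and 13.9 CPM (log2 fold change -0.45 ± 0.15, adjusted P = 0.0988).

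The change between the days was tested as the difference of the 2 label effects, an interaction added after the data were seen. It was under 0 for 50 of 51 members (54.4% of all genes), with a median of -0.62 against -0.04 over all genes. By edgeR 0 members were called (0.00663% of all genes were called lower and 0.053% higher), 26 had an unadjusted P under 0.05 in the lower direction (8.18%), and the lowest adjusted P was 0.0598, for Kif20b. DESeq2 called 4 (1.35% of all genes), Kif20b, Cenpf, Kif11 and Ttk. Within a label, the fitted level of all 51 members in pancreatic cells labelled off was lower on day 14 than on day 7 (51.3% of all genes were lower), with a median log2 difference of -0.75 against -0.01 over all genes. Of these, 27 had an unadjusted P under 0.05 (4.88% of all genes), the lowest adjusted P was 0.19 and 0 were called, as were 0.0% of all genes, while DESeq2 called Anln (0.177% of all genes). Cells labelled on differed between the days by a median of -0.08, and the medians in liver and lungs lay between -0.08 and 0.08. There 0 members were called in either direction, where 0.473% of genes were called higher and 0.593% lower in the liver labelled off and 0.0% in the other groups. For Top2a, the 3 libraries of day 7 labelled off lay at 322 to 335 CPM and the 2 of day 14 at 154 and 186 CPM, whereas the 5 labelled on lay between 119.6 and 181 CPM on both days. These comparisons share their libraries with the tests of the label, so they are not independent of them.

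**Figure D4:**
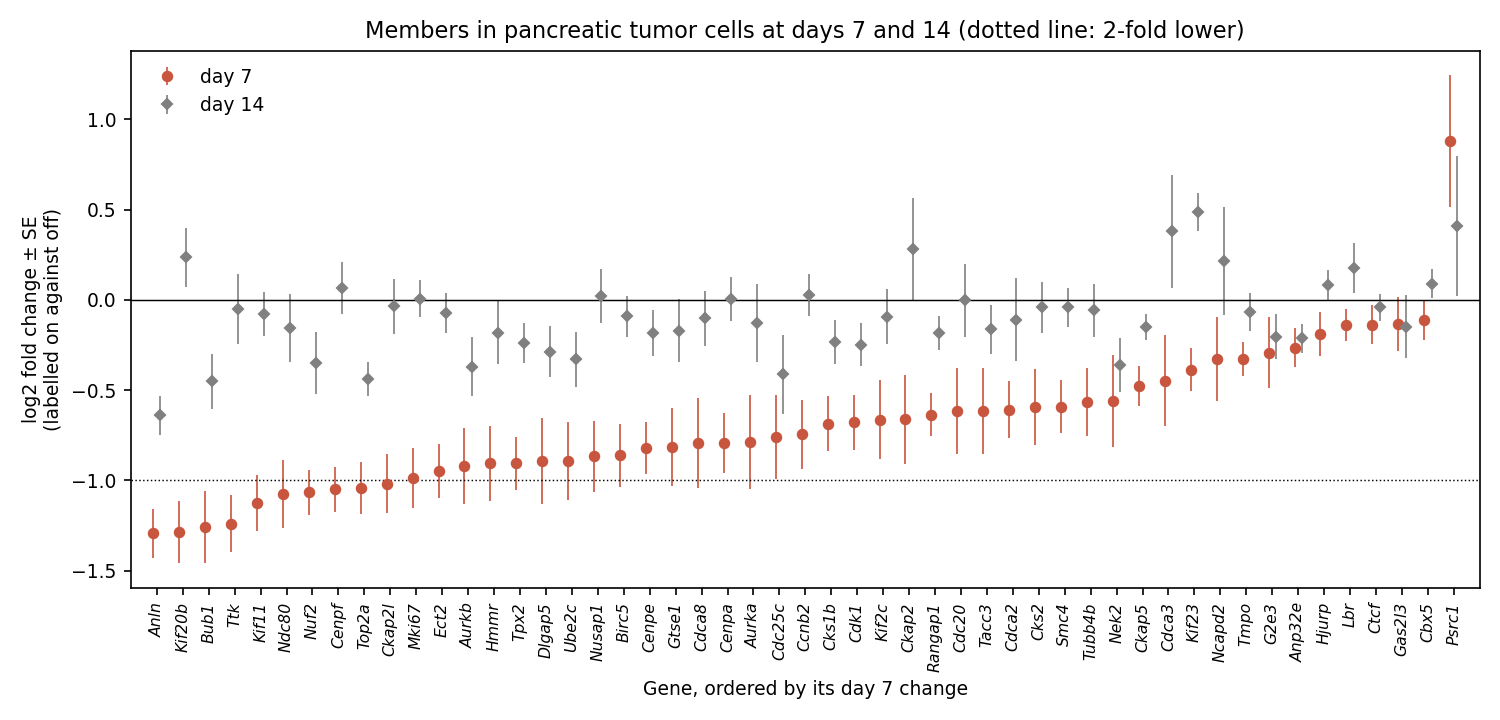
Each member's log2 fold change, labelled on against off, in the pancreas at day 7 (circles) and day 14 (diamonds), with the SE as a bar and members ordered by their day 7 value. At day 7, 50 of 51 lie under 0 with a median of -0.75, and at day 14 they scatter around 0 with a median of -0.09.

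The third comparison asked the same of liver metastases. In the liver on day 7, 0 members were called by edgeR (0.262% of 16007 genes were called lower and 0.181% higher), and DESeq2 called 1, where it called 17.8% of all genes. By edgeR 4 had an unadjusted P under 0.05, all lower (13.3% of all genes). The log2 fold change was under 0 in 46 of 51 members (53.6%), with a median of -0.57 against -0.06 over all genes, and the groups did not overlap in 13 lower (18.8%) and 2 higher (27.1%). On day 14, 0 were called by edgeR, as were 0.0% of 14947 genes, DESeq2 called 2 (2.22% of all genes), and 16 had an unadjusted P under 0.05 in the lower direction (5.07%). There 49 of 51 were under 0 (50.3%), with a median of -0.67 against -0.00, and 8 had groups that did not overlap, all lower (6.52%, and 8.5% higher). The role medians were lowest for entry into mitosis on day 7, -0.83, and for the centromere and kinetochore on day 14, -0.82, and nearest to 0 for the nuclear envelope on both days, -0.15 and -0.21.

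Anln separated the labels in the liver on both days. On day 7 it was 135 and 116 CPM labelled off and 69.4, 57.9 and 29.5 CPM labelled on (log2 fold change -1.34 ± 0.39, adjusted P = 0.108). On day 14 it was 108, 148 and 98.5 CPM and 72.0, 43.5 and 40.7 CPM (log2 fold change -1.22 ± 0.27, adjusted P = 0.357). All 5 libraries labelled off were thus above all 6 labelled on, but the edgeR test within organ and day did not pass on either day. DESeq2 called Anln on both days, with adjusted P values of 0.0151 and 0.0073. The edgeR fit of all 12 groups also called it on both days, with adjusted P values of 0.00062 and 0.0107. That fit called 17.6% and 1.45% of all genes.

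Cks1b had 105 and 55.8 CPM and 41.4, 45.4 and 20.4 CPM on day 7 (log2 fold change -1.25 ± 0.45, adjusted P = 0.158), and 62.8, 82.8 and 53.3 CPM and 37.0, 36.8 and 42.3 CPM on day 14 (log2 fold change -0.81 ± 0.20, adjusted P = 0.357). Its paralog Cks2, also a small subunit of cyclin-dependent kinases, had 27.2 and 26.7 CPM and 18.3, 15.3 and 14.4 CPM on day 7 (log2 fold change -0.83 ± 0.21, adjusted P = 0.0886), the lowest adjusted P of the members there. Bub1 overlapped on day 7, with 39.8 and 17.9 CPM and 19.6, 14.2 and 6.26 CPM, but not on day 14, with 24.5, 36.8 and 22.6 CPM and 16.9, 13.0 and 10.4 CPM (log2 fold change -1.09 ± 0.26, adjusted P = 0.357). DESeq2 called Bub1 on day 14. Anp32e, a chaperone of a histone variant, had 124 and 109 CPM and 89.2, 84.0 and 71.8 CPM on day 7 (log2 fold change -0.59 ± 0.18, adjusted P = 0.12).

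Tacc3, Ndc80, Smc4 and G2e3 were also lower without overlap in the liver on day 14, the first 3 of them on day 7 as well. Tacc3, which stabilizes kinetochore fibers, had 41.0, 70.9 and 56.2 CPM labelled off and 37.9, 26.3 and 33.5 CPM labelled on (log2 fold change -0.81 ± 0.23, adjusted P = 0.372). Ndc80 had 15.0, 28.1 and 17.4 CPM and 11.98, 9.04 and 11.3 CPM (log2 fold change -0.93 ± 0.28, adjusted P = 0.389). The condensin subunit Smc4 had 109.96, 156 and 108 CPM and 95.7, 94.9 and 90.2 CPM (log2 fold change -0.45 ± 0.18, adjusted P = 0.502). In all of these the gap between the labels was smaller than the range of the libraries labelled off. G2e3 had 36.6, 26.8 and 33.7 CPM and 22.2, 21.3 and 22.3 CPM (log2 fold change -0.60 ± 0.19, adjusted P = 0.397).

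Other members varied within a label as much as between labels. Mki67 spanned 96.6, 323 and 181 CPM in the 3 libraries of day 14 labelled off and 197, 91.2 and 98.9 CPM in the 3 labelled on. Cdk1 had 142 and 48.2 CPM and 76.7, 68.3 and 23.6 CPM on day 7. In both genes a single library labelled off stood far above the rest. The 2 members higher without overlap on day 7 were Psrc1, with 10.7 and 5.33 CPM and 17.3, 31.8 and 11.0 CPM (log2 fold change 1.24 ± 0.59, adjusted P = 0.252), and Ctcf, with 89.8 and 90.5 CPM and 95.5, 94.7 and 93.8 CPM. The edgeR log2 fold change of Ctcf was -0.01 ± 0.15 (SE; adjusted P = 0.979) and that of the single fit 0.07, so that its direction was not settled. On day 14 the groups of Psrc1 overlapped.

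Some features of the liver libraries moved with the score on day 7. Library 3 of day 7 labelled on, with mt-Co3 counts, had the lowest score of the series, and the paired-end library 2 labelled off had a score of 5.22 beside its fibroblast marker excess, against 5.95 in library 1. Without that library the score difference at day 7 went from -0.48 to -0.84. It went to -0.11 without library 1 labelled off and to -0.17 without library 3 labelled on. With the mt-Co3 class as a covariate, 12 members were called lower on day 7, where 6.38% of all genes were called, and 0 on day 14 (0.0%). Other markers separated the labels on day 7: 6 hepatocyte markers summed to 1.45 and 16.4 CPM labelled off and 54.6 to 138 CPM labelled on, leukocyte markers to 12.5 and 18.3 CPM against 33.3 to 55.8 CPM, and epithelial markers to 4025 and 12384 CPM against 15287 to 16633 CPM. On day 14 the libraries with mt-Co3 counts had the middle score of each label, 5.59 and 4.97. The library labelled off with the highest score, 6.01, also had the most fibroblast signal of its group, 4307 CPM. Leukocyte markers separated the labels on that day too, with 22.7 to 58.3 CPM labelled off and 64.3 to 144.7 CPM labelled on. The part of these other cells and libraries in the result was otherwise not tested.

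**Figure D5:**
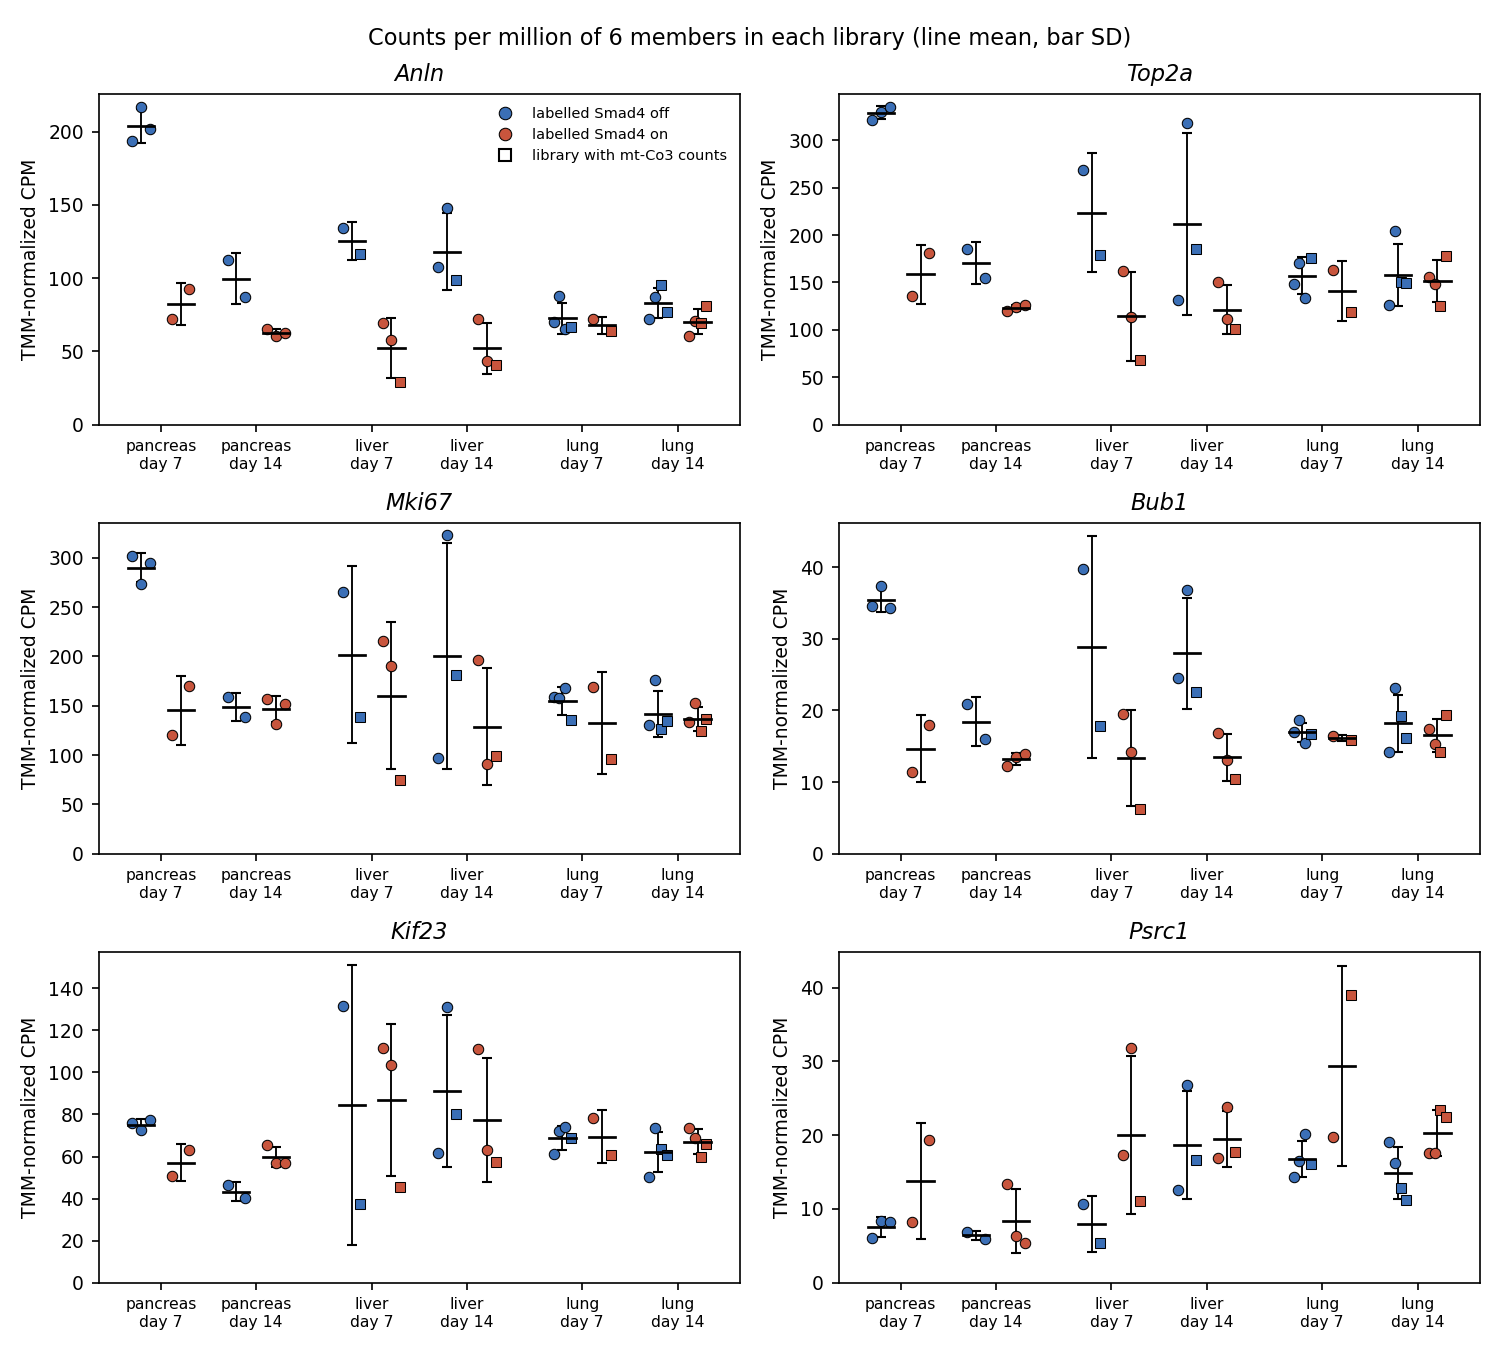
CPM of 6 members (vertical axes from 0) for each library by organ and day, with the mean as a line, the SD as a bar and squares for libraries with mt-Co3 counts. Anln separates the labels in pancreas and liver at both days, and Kif23 is higher labelled on in the pancreas at day 14, with no overlap.

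In the lungs, 0 members were called on either day by edgeR or DESeq2 (0.0% of 15193 genes by edgeR on day 7, and 0.00678% lower and 0.0203% higher of 14751 on day 14, and 0.671% and 1.34% by DESeq2). On each day 1 member had an unadjusted P under 0.05 by edgeR, Psrc1, and it was higher labelled on (2.41% and 5.17% of all genes). The medians were -0.01 and -0.00, and 28 and 29 of 51 members were under 0 (49.6% and 50.6%). The medians of the 8 roles lay between -0.06 and 0.07 on day 7 and between -0.10 and 0.09 on day 14. Anln had 70.3, 88.0, 65.4 and 66.7 CPM labelled off and 71.9 and 63.8 CPM labelled on at day 7, and 72.1, 86.9, 95.1 and 76.9 CPM and 60.7, 70.5, 69.4 and 81.0 CPM at day 14. Top2a had 127, 204, 151 and 149 CPM and 155, 148, 125 and 178 CPM at day 14 (log2 fold change -0.06 ± 0.16, adjusted P = 0.966). Both genes overlapped on each day.

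On day 7, 3 lung members were lower without overlap (6.67% of all genes), Birc5, Kif20b and Ckap2, and Rangap1 was higher (5.0%). Birc5 had 30.1, 27.6, 27.5 and 34.3 CPM labelled off and 22.05 and 25.0 CPM labelled on (log2 fold change -0.32 ± 0.20, adjusted P = 0.998), and Kif20b 18.1, 18.5, 17.9 and 26.1 CPM and 16.4 and 14.3 CPM (log2 fold change -0.39 ± 0.25, adjusted P = 0.998). Rangap1, which activates GTP hydrolysis by Ran at the nuclear pore, had 110.1, 139.7, 110.3 and 162 CPM labelled off and 172 and 191 CPM labelled on (log2 fold change 0.49 ± 0.24, adjusted P = 0.989). On day 14 no member was without overlap (3.1% of all genes lower and 2.6% higher). Psrc1 had 14.3, 16.4, 20.2 and 16.1 CPM and 19.7 and 39.0 CPM on day 7 (log2 fold change 0.85 ± 0.30, adjusted P = 0.956), and 19.1, 16.2, 12.9 and 11.2 CPM and 17.6, 17.6, 23.4 and 22.5 CPM on day 14 (log2 fold change 0.45 ± 0.19, adjusted P = 0.473). Cks2 split with the mt-Co3 class and not with the label: the lung libraries with mt-Co3 counts lay between 24.6 and 35.5 CPM and those without between 6.84 and 12.3 CPM. Tubb4b (264 to 338 CPM against 138 to 179 CPM) and Cdc20 (71.7 to 108 CPM against 45.6 to 64.9 CPM) split the same way. Hjurp split the other way, with 95.6 to 132 CPM in libraries with mt-Co3 counts and 161 to 221 CPM in those without. The part of that class in the levels of these genes was not tested.

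Whether the label acted differently in the organs was tested by interaction. Liver against lungs gave 0 calls on either day by edgeR or DESeq2 (edgeR called 0.984% of genes lower and 0.88% higher on day 7 and 0.0% on day 14, and DESeq2 called 11.5% and 0.0252% in both directions). On day 7, 43 of 51 members were under 0 (50.6%) with a median of -0.53, 3 had an unadjusted P under 0.05 in the lower direction (9.37%), and Anln had the lowest adjusted P, 0.126. On day 14, 48 were under 0 (49.2%) with a median of -0.63, 12 had an unadjusted P under 0.05 (2.1%), and the lowest adjusted P was 1.0. Pancreas against lungs on day 7, added after the data were seen, had a median of -0.77 and 50 members under 0 (47.8%). There edgeR called 0, as it did 0.0% of all genes in that direction, with 23 at an unadjusted P under 0.05 (4.16%) and a lowest adjusted P of 0.259, for Anln, while DESeq2 called 6 (1.18% of all genes). Of the other interactions added at the same time, pancreas against liver had a median of -0.19 on day 7, with 41 members under 0 (51.0%), and of 0.50 on day 14, with 3 under 0 (47.3%). Pancreas against lungs on day 14 had a median of -0.12, with 37 under 0 (49.2%). In these 3 neither edgeR nor DESeq2 called a member, where edgeR called 0.459% of all genes higher and 0.355% lower for pancreas against liver on day 7 and 0.0% in the rest, and DESeq2 8.91%, 0.189% and 0.68% in this order. In a single fit of all 12 groups, liver against lungs on day 7 called 2 members lower, Anln and Cks1b, where 11.6% of all genes were called.

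Levels were then compared between organs within a label, in 1 fit of all 12 groups with both days averaged. Among cells labelled off, lungs against pancreas gave 14 members lower and 2 higher at an adjusted P under 0.05, against 16.1% and 18.9% of the 17547 genes tested, with a median of -0.35 and 44 of 51 under 0 (45.0%). With the fold threshold 1 member was called, Psrc1, higher in the lungs by 1.18 ± 0.28 (SE; adjusted P = 0.00195) on the log2 scale, where 11.7% of genes were called higher and 7.32% lower. Anln was lower in the lungs, at -0.88 ± 0.16 (SE; adjusted P = 9.96e-05), and so was the microtubule polymerase Ckap5, at -0.63 ± 0.12 (SE; adjusted P = 0.000304). Lbr, the lamin B receptor, was higher (log2 fold change 0.36 ± 0.11, adjusted P = 0.0164). Members thus passed more often in the lower direction, while all genes passed more often in the higher. Markers of other cells moved with this comparison. With the fold threshold, 7 of 7 fibroblast, 5 of 5 tested acinar and 2 of 6 tested leukocyte markers were called lower in the lungs. Called higher were 6 of 6 lung epithelium, 4 of 7 epithelial tumor, 4 of 5 tested hepatocyte and 3 of 5 endothelial markers. Summed fibroblast markers were 165 to 1988 CPM in lung libraries labelled off and 11804 to 16852 CPM in pancreatic ones. Their part in the result was not tested. By day the order of the scores differed: the mean score labelled off was 5.20 in the lungs and 5.89 in the pancreas on day 7, and 5.27 and 5.21 on day 14.

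Liver against lungs, labelled off, gave 6 members higher (4.25% of all genes), Smc4, Anln, Bub1, Cdk1, Tacc3 and Nuf2, none lower (4.56%), and no call with the fold threshold (2.15% higher and 3.13% lower). With it, 6 of 7 fibroblast, 1 of 5 tested hepatocyte and 1 of 5 tested acinar markers were called higher in the liver. Called lower were 4 of 5 endothelial, 6 of 6 lung epithelium and 2 of 6 tested leukocyte markers. The part of all these markers was not tested. Smc4 was higher in the liver by 0.57 ± 0.11 (SE; adjusted P = 0.00124) and Cdk1 by 0.77 ± 0.23 (SE; adjusted P = 0.0341). Labelled on, the same contrast gave 0 members at an adjusted P under 0.05 in either direction (11.3% of all genes higher and 8.81% lower) and 3 at an unadjusted one, all lower (14.5%). Neither edgeR (5.72% higher and 5.21% lower) nor DESeq2 (12.4%) called a member with the fold threshold. Liver against pancreas, labelled off, gave Lbr alone (log2 fold change 0.43 ± 0.13, adjusted P = 0.0191), where 9.51% of genes were higher and 7.76% lower, and no call (5.56% and 3.97%). There 5 of 5 tested acinar, 3 of 6 tested leukocyte, 3 of 5 endothelial and 1 of 7 fibroblast markers were called lower. Higher in the liver were 5 of 7 epithelial tumor and 3 of 5 tested hepatocyte markers, and their part was not tested.

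Among cells labelled on, liver against pancreas called Tubb4b higher (log2 fold change 1.05 ± 0.24, adjusted P = 0.000828), where 11.3% of genes were called in each direction, and 6 members were higher and 5 lower without the fold threshold (21.3% and 18.6%). The call of Tubb4b was lost with the mt-Co3 class as a covariate. Tubb4b stood at 93.7 and 140.3 CPM in the pancreas of day 7 and at 238, 242 and 316 CPM in the liver. Lungs against pancreas, labelled on, called Psrc1 higher (log2 fold change 1.18 ± 0.30, adjusted P = 0.00501), where 6.32% of genes were called higher and 7.39% lower, and 3 were higher and 1 lower without the fold threshold (12.8% and 13.1%). Rangap1 rose by less than 2-fold (log2 fold change 0.64 ± 0.13, adjusted P = 0.000728). Psrc1 thus stood higher in the lungs than in the pancreas under both labels. In both contrasts against pancreas labelled on, 7 of 7 fibroblast and 5 of 5 tested acinar markers were called lower. In the liver, 6 of 7 epithelial tumor and 5 of 5 tested hepatocyte markers were called higher. Also lower there were 2 of 5 endothelial and 1 of 6 tested leukocyte markers. In the lungs, 6 of 6 lung epithelium, 2 of 7 epithelial tumor and 2 of 5 endothelial markers were called higher. So were 1 of 5 tested hepatocyte and 1 of 6 tested leukocyte markers there, and 1 of 4 erythroid markers was lower. The part of these markers was not tested. The count of calls in both contrasts against pancreas labelled on was 0 without library 1 of the pancreas on day 7. It was also 0 without library 3 of the liver on day 7 or day 14 in the liver contrast, and without library 2 of the lungs on day 7 in the lung contrast.

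Per kilobase of transcript, the median level over the 35 libraries was highest for Tubb4b (85.7 CPM per kb), a tubulin of most cells, followed by Cks1b (47.4), Rangap1 (40.8) and Cdc20 (34.5), and lowest for Ttk (1.61) and Gas2l3 (1.58). The members did not vary alike. The SD of log2 level over the libraries was 0.72 for Psrc1, 0.62 for Cks2 and 0.61 for Anln, and 0.14 for Ctcf and 0.18 for Tmpo. The 35 libraries differ in depth, organ and label. Across them, the correlation of a member with the score of the other 50 had a median of 0.87. It was over 0.8 in 30 of 51 members. The spindle depolymerase Kif2c (0.96) and the passenger protein Cdca8 (0.97) followed the rest closely, and G2e3 (0.25), Hjurp (0.22), Lbr (0.22), Tubb4b (0.13) and Psrc1 (-0.08) did not. Within groups, after subtracting each group's mean, Psrc1 had a correlation of 0.51 and G2e3 one of -0.28.

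The genes outside the list whose levels were most like the score, by the same correlation over 35 libraries and 17496 genes (median -0.03), were the chromokinesin Kif4 (0.97), cyclin A2 (Ccna2, 0.96) and the kinesin Kif22 (0.94). Of the 20 nearest, 14 stood on a separate list of 61 other G2 and mitosis genes and 0 on a list of 43 S-phase genes. On day 7 in the pancreas, 60 of those 61 genes had a log2 fold change under 0 with a median of -0.81, 15 fell at an adjusted P under 0.05 and 9 were called lower, against 48.8%, 0.9% and 0.374% of all genes. They included the kinetochore scaffold Knl1 (log2 fold change -1.65 ± 0.21, adjusted P = 0.0231), the centriole kinase Plk4 (log2 fold change -1.08 ± 0.12, adjusted P = 0.0181) and Arhgap11a, a GTPase activator for RhoA (log2 fold change -1.07 ± 0.12, adjusted P = 0.0175). Plk1, the polo kinase of mitosis, fell by less than 2-fold (log2 fold change -0.89 ± 0.15, adjusted P = 0.0418), and cyclin B1 (Ccnb1) had 50.4, 40.1 and 41.6 CPM labelled off and 17.0 and 27.8 CPM labelled on (log2 fold change -0.96 ± 0.23, adjusted P = 0.0826).

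Of the 43 S-phase genes, 41 were under 0 on day 7 in the pancreas with a median of -0.58, 9 fell and 0 were called, against the same shares of all genes. The replication-coupled methylation factor Uhrf1 (log2 fold change -0.81 ± 0.09, adjusted P = 0.0181) and the chromatin factor Atad2 (log2 fold change -0.77 ± 0.10, adjusted P = 0.0239) were among those that fell. Of 23 cell cycle transcription regulators, 2 were called lower, Mybl2 (log2 fold change -1.31 ± 0.20, adjusted P = 0.0336), the B-Myb of the MuvB complex, and the repressor E2f7 (log2 fold change -1.33 ± 0.20, adjusted P = 0.0333). Foxm1 had 106, 95.7 and 123 CPM and 46.5 and 96.5 CPM (log2 fold change -0.59 ± 0.31, adjusted P = 0.327) and did not pass. None of the 6 inhibitors of cyclin-dependent kinases tested passed. Cdkn1a, or p21, had a log2 fold change of 0.40 ± 0.23 (SE; adjusted P = 0.342) and Cdkn1b one of 0.07 ± 0.13 (SE; adjusted P = 0.774).

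On day 14 in the pancreas, 3 of the 61 other G2 and mitosis genes, 2 of the S-phase genes and 2 of the regulators fell, where 6.3% of all genes did, E2f1 (log2 fold change -0.63 ± 0.09, adjusted P = 0.00524) among them, and 1 regulator rose (6.6% of all genes). In the liver and lungs no gene of any of the 4 lists passed on either day. The medians of the 61 genes were -0.71 and -0.67 in the liver at days 7 and 14, and -0.04 and -0.06 in the lungs. In the liver on day 7, Cdkn1a had 171 and 131 CPM labelled off and 277, 281 and 361 CPM labelled on (log2 fold change 0.94 ± 0.23, adjusted P = 0.0872), Cdkn1c was at -2.04 ± 0.36 (SE; adjusted P = 0.0628) and Cdkn2d at -1.30 ± 0.26 (SE; adjusted P = 0.069). Under the labels, the sign of Cdkn1c is opposite to the study, which reports it upregulated after Smad4 restoration, in the liver specifically. Why they differ was not tested.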

How the data were processed

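RNA was sequenced from 35 sorted KC-shSmad4 tumor cell samples as poly(A)-selected, stranded libraries of 75-base single reads, except 1 library that its label describes as paired-end. Per the labels and the methods of the study, the authors trimmed reads with Trimmomatic 0.36, checked them with FastQC 0.11.5, aligned them to GRCm38/mm10 with STAR 2.5.3a and counted them with featureCounts 1.6.3, and deposited whole-number counts per gene with no normalization. All 35 columns matched a sample. A further allele that all groups share is not reported here. Reads shared by near-identical genes may be lost or split by such counting.

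Counts were tested in R 4.3.3 with edgeR 4.0.16 (TMM scaling, filterByExpr with a minimum count of 10 and a minimum total of 15, quasi-likelihood F-tests) on all genes passing the filter, with Benjamini-Hochberg adjustment over all of them. Calls needed an adjusted P under 0.05 and more than a 2-fold change. The values after ± are SE for log2 fold changes and SD for means. Label comparisons were fitted within organ and day, interactions in the 4 groups concerned, and organs and days in 1 fit of 12 groups. P-values measure the spread between these libraries. CPM are counts scaled to 1000000 per library after TMM scaling, and the score used a pseudocount of 0.5. Depth sets the floor of 3 counts per library, which is taken on totals before TMM scaling and covers counting error only. Scripts were tested on simulated data. Levels per length used the transcript lengths of the deposited table. Tables and figures used Python 3.11.15, pandas 2.3.3 and matplotlib 3.10.9.

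The members, roles and gene lists were chosen with earlier results of these data known. Genes were named by rule: the top 2 by total counts of each role, up to 3 with the lowest P per direction among those without overlap in each label comparison and up to 3 per direction in each organ contrast, Mki67, the 5 members least correlated with the score, up to 3 of each other list, and Foxm1, Mybl2, Ccnb1, Plk1 and the Cdkn1 genes. The called members and other genes named were chosen after their values were seen.

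Alternatives were DESeq2 1.42.0, its size factors, no filter, no fold threshold, 1 fit of all groups, the mt-Co3 class as a covariate, a mouse-number block, each library left out and other forms of the score. Among comparisons with 3 or more pairs, the correlation of same-numbered libraries' deviations was over 0.1 in every pair only in the lungs on day 14. It was 0.55 to 0.66 over 4 pairs there, though 2 of them correlated more with another number. Libraries 1 and 2 had no mt-Co3 counts there and libraries 3 and 4 had them, under both labels. A pairing by number thus cannot be told apart from that class.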

Additional observations from a re-analysis of the deposited data

Results flagged for a closer look

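In the 3 groups of 4 libraries, 90 values (a gene or the member score within 1 group) were examined for a library far from the others, and 7 had one, where chance gives about 1 in 20. The values of a group share its libraries and are not independent. In the lungs on day 7 labelled off, library 4, the one with mt-Co3 counts in its group, had 90.27 CPM of Cdc20 against at most 52.61 CPM in the other libraries, 35.49 CPM of Cks2 against at most 12.32 CPM, and 26.1 CPM of Kif20b against at most 18.49 CPM. Library 3 of the same group had 35.76 CPM of Cenpf, and the others lay between 32.44 and 32.92 CPM. In the lungs on day 14 labelled off, library 2 had 176.4 CPM of Mki67 against at most 134.4 CPM. In the lungs on day 14 labelled on, library 4 had a member score of 5.4216 against at most 5.227, and library 3 had 26.36 CPM of Birc5 against at least 32.42 CPM, both with mt-Co3 counts. Their part in these values was not tested.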

How the results depend on the processing

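On day 7 in the pancreas, the 10 members called became 0 with the mouse number as a replicate block (2 shared numbers, which only share a number) and 1 in 1 fit of all 12 groups, and 0 to 7 with 1 library left out. In the lungs on day 14, where same-numbered libraries also share their mt-Co3 class, the replicate block gave 0 calls. So did the fit without it, and the block moved no other count of calls. Without the fold threshold, 3 members were called among pancreatic libraries of day 14. For liver libraries of day 7 the 0 calls became 1 with DESeq2, 12 with the mt-Co3 covariate and 5 in the single fit, where these called 17.8%, 6.38% and 17.6% of all genes. On day 14 they became 2 and 1 with DESeq2 and the single fit (2.22% and 1.45% of all genes). For interactions, 0 became 2 in the single fit for liver against lungs on day 7, 6 with DESeq2 for pancreas against lungs on day 7 and 4 with DESeq2 for the days of the pancreas. Between organs without the fold threshold, the counts were 1 for liver against pancreas, 16 for lungs against pancreas and 6 for liver against lungs labelled off, and 11 for liver and 4 for lungs against pancreas labelled on. For liver against pancreas labelled on, the mt-Co3 covariate gave 0. DESeq2 called 1 member between the days of the pancreas labelled off.

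With single libraries left out, calls for liver against pancreas and liver against lungs labelled off ran from 0 to 1 (1 without liver day 7 labelled off library 2), for lungs against pancreas labelled off from 1 to 1, for both contrasts against pancreas labelled on from 0 to 2, and for the days of the liver labelled off from 0 to 2 (2 without day 7 library 1). For liver against pancreas labelled on, 0 were left without pancreas day 7 library 1, or liver day 7 or day 14 library 3. For lungs against pancreas labelled on, 0 were left without pancreas day 7 library 1 or lung day 7 library 2. Counts of 2 came up for both contrasts without pancreas day 7 library 2 or pancreas day 14 library 1, and for the lungs also without lung day 7 library 1 or lung day 14 library 1 or 2. The other counts stayed at 0. The score difference ran from -0.91 to -0.50 and from -0.24 to 0.01 in the pancreas at days 7 and 14, from -0.84 to -0.11 and from -0.76 to -0.33 in the liver, and from -0.04 to 0.04 and from -0.09 to 0.04 in the lungs. On day 7 it was -0.96 in the pancreas as the median over members and -0.13 in the lungs with mt-Co3 libraries alone (1 of each label). Values near 0 changed sign for Ctcf (0.071) and Kif23 (0.038) in the liver on day 7 and Hjurp (0.0029) on day 14 in the single fit, and for Mki67 in the pancreas on day 14 with DESeq2 (-0.0022), its size factors (-0.0023) and the single fit (-0.018). Of the other values of single genes, 182 kept their call, 7 passed and 3 no longer passed. The cause was not tested. The mt-Co3 covariate was not run in the pancreas, which has no such libraries. Groups of 2 libraries limit every estimate of spread.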
